A study of Mus musculus with 8 samples.

Results

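TRIM (tripartite motif) proteins carry a RING finger, B-boxes and a coiled coil in a row, usually followed by a C-terminal domain such as PRY-SPRY that sets what they bind. Most are E3 ubiquitin ligases, which pass ubiquitin from an E2 enzyme to a target and so change its activity or send it to the proteasome. In macrophages some of them act directly on viruses, others raise or restrain the signals that run from nucleic acid sensors to interferon, and many antiviral members are themselves known to be induced by interferon. The genes described here are all rows of the deposited table whose symbol is Trim followed by a number and at most 1 letter. They number 52 of 15521 genes, and 1 further gene of that form was left out and is not reported. The rule reads symbols alone, though it was chosen with earlier results of these data known.

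The cells were mouse alveolar macrophages, phagocytes that live in the air sacs of the lung, rinsed from the lungs by lavage, kept if they adhered within 2 h, and cultured with the growth factor GM-CSF at 10 ng/ml in every group. Bulk RNA-seq libraries form 4 groups of 2. The first group received MSDC at 10 µM for 2 h and then Poly(I:C), a synthetic double-stranded RNA that stands in for viral RNA, at 5 µg/mL for 24 h according to the sample labels (overnight in the series description). The second received DMSO as vehicle and the same Poly(I:C), the third MSDC alone, and the last vehicle alone. MSDC stands for a code-named compound series whose members are known to target the carrier that brings pyruvate into mitochondria, but which member was used is not stated. Neither a mouse strain nor an age is given, and all groups are cultured primary cells, so they model the macrophage outside the lung. Nothing in the labels tells whether both samples of a group were separate animals or cultures, so the p-values below reflect the spread between these libraries alone, and that spread may be technical.

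Libraries held 28762425 to 29493223 expected counts, and 3 counts, taken as the floor of detection for counting error only, correspond to 0.102 to 0.104 CPM, a count divided by its library's total. All 14 alveolar macrophage markers looked up were present, at 17100 to 20600 TPM (a level scaled to transcript length and depth) in sum. Single markers differed with MSDC in both directions, which the sum hides. Without Poly(I:C), Ear1 was at 1613 and 1617 TPM with MSDC against 119 and 120 TPM with vehicle. Chil3 was at 4807 and 4697 TPM with MSDC against 8536 and 8579 TPM with vehicle. The B cell markers summed to at most 0.16 TPM, those of T cells to at most 0.89 TPM and those of fibroblasts to at most 0.4 TPM. NK cell markers summed to at most 0.13 TPM, the 1 eosinophil marker in the table was listed at 0. Neutrophil markers (3 in the table, most of the sum from S100a8) summed to 32.1 to 42.1 TPM with Poly(I:C) and MSDC, 28 to 28.1 TPM with Poly(I:C) and vehicle, 38.7 to 46.7 TPM with MSDC, and 25.6 to 32.6 TPM with vehicle. Endothelial markers (3) summed to 23 to 24.1 TPM with Poly(I:C) and MSDC, 26.1 to 29.4 TPM with Poly(I:C) and vehicle, 30 to 31.2 TPM with MSDC, and 43.5 to 44.9 TPM with vehicle, of which Vwf gave 22.6 to 43.5 TPM while Pecam1 was at 0.2 TPM or less. Epithelial markers (7) summed to 22.8 to 22.9 TPM with Poly(I:C) and MSDC, 23 to 24.4 TPM with Poly(I:C) and vehicle, 27.6 to 30.5 TPM with MSDC, and 34.8 to 37.2 TPM with vehicle, of which Cdh1 gave 19.6 to 33.3 TPM. Monocyte markers (3 of 3 in the table) summed to 0.54 to 1.02 TPM with Poly(I:C) and MSDC against 2.64 to 2.65 TPM with Poly(I:C) and vehicle, and to 0.36 to 0.62 TPM with MSDC against 2.07 to 2.2 TPM with vehicle. Dendritic cell markers (5 in the table) summed to 3.98 to 4.67 TPM with Poly(I:C) and MSDC and 6.7 to 8.47 TPM with Poly(I:C) and vehicle, against 2.74 to 2.96 TPM with MSDC and 4.48 to 5.61 TPM with vehicle. The part of these markers in the results below was not tested. In bulk RNA, fewer cells of a type and less RNA per cell cannot be told apart.

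Of the 52 members, 38 had enough counts to be tested and 14 had not. Trim9, Trim38 and Trim54 were listed at 0 in all 8 libraries, which at this depth allows up to 0.102 to 0.104 CPM, and the other 11 untested members had at most 25 counts over all libraries together. Trim38, described as a negative regulator of signalling from the double-stranded RNA receptor TLR3, was therefore not detectable at this depth with or without Poly(I:C). Among tested members the mean level over all libraries ran from 0.269 TPM for Trim7 to 103.6 TPM for Trim29, with 19 members above 10 TPM. The 5 highest were Trim29 (103.6 TPM), Trim28 (95.8 TPM), Trim30a (67.4 TPM), Trim14 (51.1 TPM) and Trim35 (42.0 TPM). In vehicle the order at the top was Trim28, Trim29, Trim35, Trim27, Trim8 and Trim14, with Trim30a in place 11.

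Poly(I:C) raised the same 11 members in MSDC and in vehicle and lowered none. A gene was called when its adjusted p from edgeR's quasi-likelihood test, with Benjamini-Hochberg adjustment over all 11621 tested genes, was under 0.05. In MSDC 11 of 38 members were called higher, or 28.9%, where 4.82% of all tested genes were called higher with Poly(I:C). In vehicle 11 of 38 were called higher, where 7.52% of all tested genes were. Counting both directions, 6.32% of all tested genes were called in MSDC and 11.6% in vehicle. The calls concentrated in the Trim5 relatives on chromosome 7, of which all 7 tested were called in both settings, with a median log2 fold change of 1.58 in MSDC and 1.47 in vehicle. The median over all 38 members was 0.10 in MSDC and 0.06 in vehicle, against 0.00 in MSDC and 0 in vehicle over all tested genes. The others called were Trim21, Trim14, Trim26 and Trim56, 4 of 12 tested innate immune members encoded elsewhere. Neither the 3 tested TIF1 chromatin proteins, the 2 tested NHL and filamin members, Trim46 nor the 13 tested members without an assigned role were called higher. The 2 comparisons use different libraries.

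No member was called lower with Poly(I:C), against 1.5% of all tested genes in MSDC and 4.1% in vehicle. At an unadjusted p under 0.05, 1 member was lower in each setting, and DESeq2 and limma called 0. The share of all tested genes at that unadjusted threshold was not worked out. Trim36 was at 6.99 and 7.16 TPM with Poly(I:C) and vehicle, against 9.62 and 8.86 TPM with vehicle, a log2 fold change of -0.33. It was called lower in vehicle with library totals in place of TMM factors or when no filter on low counts was used.

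**Figure D1:**
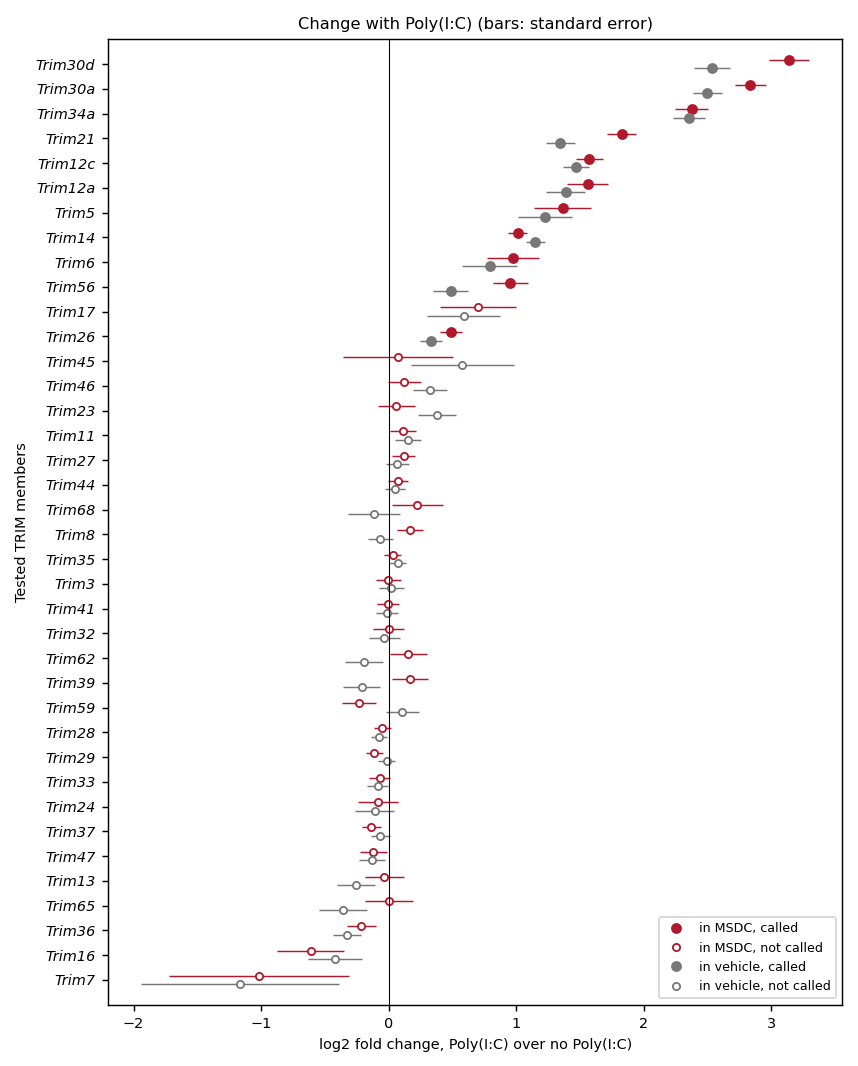
Change with Poly(I:C) of each of the 38 tested Trim members, in rows ordered by the mean of both log2 fold changes. Values are the log2 fold change of Poly(I:C) with MSDC over MSDC and of Poly(I:C) with vehicle over vehicle, with bars of 1 standard error. The 7 tested chromosome 7 relatives of Trim5 lie between 0.79 and 3.14, while most other members lie near 0.

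The promoters of the raised members were searched for 1 sequence in common. The interferon-stimulated response element, a site bound by interferon regulatory factors, has a core made of GAAA, any 2 bases and GAAA again, which on the other strand reads TTTC, any 2 bases and TTTC. Both strands were searched in RefSeq promoters of GRCm38.p6, from 250 bases before to 50 bases after the start of each gene. Of 27025 genes, 1079 (3.99%) held at least 1 match, and so did 1131 of 32851 promoters (3.44%). Of the 52 members 40 had a promoter in the table, and 9 of these (22.5%) held a match. Among the members raised by Poly(I:C) in vehicle 10 had a promoter and 8 held a match, namely Trim5, Trim12a, Trim12c, Trim21, Trim26, Trim30a, Trim30d and Trim34a, while Trim6 and Trim56 held none. Among the 17 tested members with a promoter that were not raised, 0 held a match, and Trim2 was the 1 match among 13 untested members. These counts are a description, since several of the genes are copies of each other and a match is not a shown binding site. Trim30a has 2 promoters in the table, each with a match, and every other gene of the 8 has 1. The window of 50 bases around the match is shown once for each distinct sequence, 5′ to 3′ on the strand of the gene, with the matched letters in capitals.
Trim30a (chr7:104465200-104465249, minus strand): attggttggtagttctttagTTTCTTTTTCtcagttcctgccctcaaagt
Trim30a, second promoter (chr7:104446094-104446143, minus strand): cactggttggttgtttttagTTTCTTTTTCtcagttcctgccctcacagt
Trim34a (chr7:104244447-104244496, plus strand): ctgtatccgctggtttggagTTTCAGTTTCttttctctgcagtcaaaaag
Trim5 (chr7:104288126-104288175, minus strand): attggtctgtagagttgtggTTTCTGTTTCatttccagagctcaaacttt
Trim12c (chr7:104353349-104353398, minus strand): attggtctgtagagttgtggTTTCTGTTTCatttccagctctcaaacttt
Trim21 (chr7:102565440-102565489, minus strand): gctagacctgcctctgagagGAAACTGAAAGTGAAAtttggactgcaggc
Trim26 (chr17:36836966-36837015, plus strand): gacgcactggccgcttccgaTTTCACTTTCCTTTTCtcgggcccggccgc

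The Trim30d window (chr7:104507861-104507910, minus strand) is identical to that of the first Trim30a promoter over all 50 bases, and the Trim12a window (chr7:104315456-104315505, minus strand) is identical to that of Trim5. The Trim12c window has 48 of 50 bases in common with Trim5, so these neighbours carry copies of 1 sequence. Trim34a shares 22 of 50 aligned positions with Trim30a and 24 with Trim5. Trim21 and Trim26 each hold 2 overlapping matches, which is why their run of capitals is longer. Counted from the start site, the match begins at base -36 in the first and 3 in the second promoter of Trim30a, -41 in Trim30d, -49 in Trim5, 11 in Trim12a, -29 in Trim12c, 11 in Trim34a, 14 and 20 in Trim21, and -160 and -154 in Trim26. The whole first promoter of Trim30a, the member with the highest level in Poly(I:C) and vehicle, and the promoters of Trim21 and Trim26, the raised members outside the cluster with a match, are shown to place these matches in context.
Trim30a (chr7:104465144-104465443, minus strand): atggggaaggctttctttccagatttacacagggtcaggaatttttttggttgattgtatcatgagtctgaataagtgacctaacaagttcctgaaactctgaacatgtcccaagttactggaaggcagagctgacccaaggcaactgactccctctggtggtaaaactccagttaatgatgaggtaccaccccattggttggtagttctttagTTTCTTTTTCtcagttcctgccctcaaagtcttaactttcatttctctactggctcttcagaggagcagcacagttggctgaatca
Trim21 (chr7:102565433-102565732, minus strand): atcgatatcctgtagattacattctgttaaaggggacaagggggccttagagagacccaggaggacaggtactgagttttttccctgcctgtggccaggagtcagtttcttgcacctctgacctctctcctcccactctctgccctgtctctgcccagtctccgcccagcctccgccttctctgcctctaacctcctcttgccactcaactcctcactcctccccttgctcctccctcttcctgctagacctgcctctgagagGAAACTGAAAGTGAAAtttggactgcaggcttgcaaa
Trim26 (chr17:36836896-36837195, plus strand): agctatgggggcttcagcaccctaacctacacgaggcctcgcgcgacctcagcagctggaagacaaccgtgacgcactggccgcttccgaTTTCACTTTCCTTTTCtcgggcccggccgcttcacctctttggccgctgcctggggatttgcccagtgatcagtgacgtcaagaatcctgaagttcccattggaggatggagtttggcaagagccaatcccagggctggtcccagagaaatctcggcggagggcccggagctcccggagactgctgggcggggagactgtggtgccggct

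Trim5, Trim6, Trim12a, Trim12c, Trim30a, Trim30b, Trim30d, Trim34a and Trim34b lie side by side on chromosome 7 (GRCm38, GENCODE M21), from the start of Trim6 at 104218793 to the end of Trim30d at 104507849. Trim30a, at 104409025 to 104465193 on the minus strand, encodes a rodent protein known to restrain Toll-like receptor signalling to NF-kB in mouse macrophages by sending TAB2 and TAB3 for degradation. Its level was 95.4 and 104.7 TPM with Poly(I:C) and MSDC, 126 and 137 TPM with Poly(I:C) and vehicle, 13.7 and 14.2 TPM with MSDC, and 28.6 and 19.9 TPM with vehicle. All 4 Poly(I:C) libraries were above all 4 without it, and both MSDC libraries were below both vehicle libraries in each setting. Trim30a was 7.15-fold higher with Poly(I:C) in MSDC (log2 2.84, SE 0.119, adjusted p = 7.05e-11, n = 2 per group, from edgeR) and 5.65-fold higher in vehicle (log2 2.50, SE 0.114, adjusted p = 1.68e-10). It made up 11.1 and 12.5% of the summed TPM of all members with Poly(I:C) and MSDC, 15 and 15.9% with Poly(I:C) and vehicle, 2.18 and 2.32% with MSDC, and 4.45 and 3.22% with vehicle.

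Trim30d, the neighbouring copy at 104470014 to 104507849, had 35.4 and 34.2 TPM with Poly(I:C) and MSDC, 40.1 and 42.3 TPM with Poly(I:C) and vehicle, 3.74 and 3.94 TPM with MSDC, and 9.37 and 5.57 TPM with vehicle. Its groups followed the order of Trim30a, with no overlap between Poly(I:C) and unstimulated libraries. The log2 fold change with Poly(I:C) was 3.14 in MSDC (SE 0.156, adjusted p = 5.28e-10) and 2.54 in vehicle (SE 0.144, adjusted p = 2.72e-09). Trim30b, another copy, had 17.1 expected counts over all libraries and was not tested. Transcripts of Trim30a and Trim30d share 5.98 and 6.39% of their 50-base windows, so a few reads could belong to either. With Trim30a, Trim30b and Trim30d summed, the log2 fold change with Poly(I:C) was 2.91 in MSDC and 2.51 in vehicle.

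Trim34a, at 104244457 to 104262234 on the plus strand, is a relative of human TRIM34, which acts together with TRIM5 on incoming retroviral capsids. It had 34.8 and 32.2 TPM with Poly(I:C) and MSDC, 38.0 and 41.0 TPM with Poly(I:C) and vehicle, 5.88 and 7.08 TPM with MSDC, and 9.38 and 6.77 TPM with vehicle. Stimulated and unstimulated libraries were far apart, and the MSDC and vehicle libraries overlapped without Poly(I:C). The log2 fold change with Poly(I:C) was 2.38 in MSDC (SE 0.129, adjusted p = 1.67e-09) and 2.36 in vehicle (SE 0.125, adjusted p = 1.23e-09). Its copy Trim34b had 9.45 expected counts in all and was not tested. The pair share 39.8% of the transcript windows of Trim34a and 56.8% of those of Trim34b, and their sum changed by the same log2 2.38 in MSDC and 2.36 in vehicle.

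Trim5, Trim12a and Trim12c are the mouse relatives of primate TRIM5, which binds the capsid of retroviruses as they enter the cell. Trim12a (104299894 to 104315466) had 18.3 and 15.6 TPM with Poly(I:C) and MSDC, 19.7 and 14.6 TPM with Poly(I:C) and vehicle, 5.66 and 5.85 TPM with MSDC, and 7.31 and 6.35 TPM with vehicle. Trim12c (104338754 to 104353362) had 14.9 and 14.5 TPM with Poly(I:C) and MSDC, 15.2 and 17.4 TPM with Poly(I:C) and vehicle, 4.82 and 5.04 TPM with MSDC, and 6.37 and 5.91 TPM with vehicle. Trim5 (104263386 to 104288094) had 4.65 and 4.81 TPM with Poly(I:C) and MSDC, 6.70 and 4.85 TPM with Poly(I:C) and vehicle, 2.49 and 1.38 TPM with MSDC, and 2.41 and 2.50 TPM with vehicle. For each of the 3 genes every stimulated library was above every unstimulated one. The log2 fold changes with Poly(I:C) in MSDC were 1.56 for Trim12a (SE 0.159, adjusted p = 4.36e-06), 1.58 for Trim12c (SE 0.103, adjusted p = 1.9e-08) and 1.37 for Trim5 (SE 0.223, adjusted p = 0.000719). In vehicle they were 1.39 for Trim12a (SE 0.155, adjusted p = 9.93e-06), 1.47 for Trim12c (SE 0.101, adjusted p = 2.87e-08) and 1.23 for Trim5 (SE 0.211, adjusted p = 0.000871). Trim12c and Trim5 share 24.2 and 23.5% of their transcript windows, so their separate values are uncertain. Their sum with Trim12a changed with Poly(I:C) by log2 1.54 in MSDC and 1.41 in vehicle. The same sum was lower with MSDC without Poly(I:C) (log2 -0.29, SE 0.0866, adjusted p = 0.0224, from edgeR), where none of the 3 genes was called alone. Under Poly(I:C) the sum was not called with MSDC (log2 -0.16).

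Trim6, at 104218793 to 104235152, makes unanchored ubiquitin chains that activate the kinase IKKε in human cells. It was the cluster member with the smallest change, at 2.87 and 2.76 TPM with Poly(I:C) and MSDC, 1.78 and 2.13 TPM with Poly(I:C) and vehicle, 1.21 and 1.36 TPM with MSDC, and 1.24 and 1.11 TPM with vehicle. The log2 fold change with Poly(I:C) was 0.98 in MSDC (SE 0.202, adjusted p = 0.00599) and 0.79 in vehicle (SE 0.213, adjusted p = 0.0237). The call in MSDC was lost without MSDC replicate 1 or Poly(I:C) with MSDC replicate 1. The call in vehicle was lost without vehicle replicate 1 or without either library of Poly(I:C) with vehicle, among 7 of 16 alternatives.

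**Figure D2:**
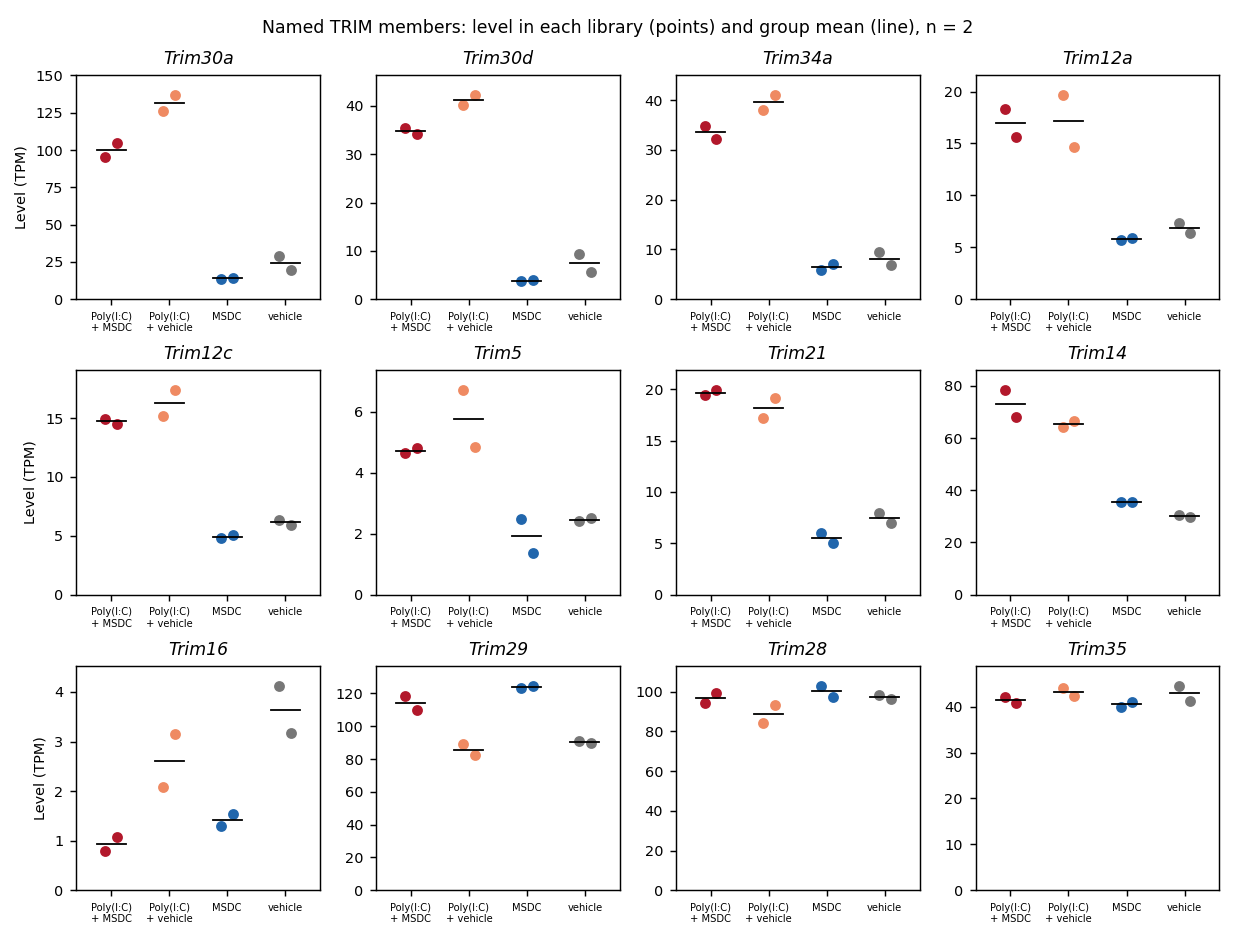
Level in TPM (vertical axes, each from 0 with its own range) of 12 Trim members in the 8 libraries (points) with the mean of each group (lines, n = 2 per group). Trim30a, Trim30d, Trim34a, Trim12a, Trim12c, Trim5, Trim21 and Trim14 are higher in all Poly(I:C) libraries than in any other, Trim16 is lower and Trim29 higher with MSDC in both settings, and Trim28 and Trim35 were called in no comparison.

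Among innate immune members outside the cluster, Trim21 and Trim14 responded most. Trim21 (chromosome 7, 102557921 to 102565486, apart from the cluster) is the cytosolic receptor that binds antibody on incoming virus. It had 19.5 and 19.9 TPM with Poly(I:C) and MSDC, 17.2 and 19.2 TPM with Poly(I:C) and vehicle, 6 and 5.07 TPM with MSDC, and 7.96 and 7.02 TPM with vehicle. It was 3.55-fold higher with Poly(I:C) in MSDC (log2 1.83, SE 0.113, adjusted p = 9.32e-09) and 2.55-fold higher in vehicle (log2 1.35, SE 0.11, adjusted p = 2.34e-07). Trim14 (chromosome 4, 46493781 to 46536141) lacks a RING finger and serves in human cells as an adaptor at MAVS, the mitochondrial hub of RNA sensing. Its level was 78.2 and 68.0 TPM with Poly(I:C) and MSDC, 64.2 and 66.5 TPM with Poly(I:C) and vehicle, 35.6 and 35.4 TPM with MSDC, and 30.6 and 29.9 TPM with vehicle. The log2 fold change with Poly(I:C) was 1.01 in MSDC (SE 0.0746, adjusted p = 8.31e-08) and 1.15 in vehicle (SE 0.0754, adjusted p = 1.67e-08). Trim14 overlaps Nans on the opposite strand, and the strand setting of the counting is not known here.

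Trim26, a ligase reported to act on IRF3, and Trim56, reported to act in STING and TLR3 signalling, changed less. Trim26 (chromosome 17, 36837134 to 36859398) had 36.1 and 31.1 TPM with Poly(I:C) and MSDC against 23.0 and 24.8 TPM with MSDC (log2 0.49, SE 0.084, adjusted p = 0.0012). In vehicle it had 33.8 and 34.5 TPM with Poly(I:C) against 28.7 and 28.0 TPM without (log2 0.33, SE 0.0831, adjusted p = 0.015). Trim56 (chromosome 5, 137105644 to 137116209) had 7.82 and 7.39 TPM with Poly(I:C) and MSDC against 4.49 and 3.71 TPM with MSDC (log2 0.95, SE 0.136, adjusted p = 0.000184). In vehicle it had 5.04 and 5.60 TPM with Poly(I:C) against 4.20 and 3.90 TPM without (log2 0.49, SE 0.139, adjusted p = 0.032). Groups did not overlap in any of these 4 comparisons, which at 2 libraries a group adds no support to calls already made. In vehicle the Trim26 call held under 11 of 16 alternatives, being lost without either library of Poly(I:C) with vehicle and in all 3 limma settings. The Trim56 call in vehicle held under 8 of 16, being lost with DESeq2, in all 3 limma settings, with only the groups compared, and without vehicle replicate 2, Poly(I:C) with vehicle replicate 2 or Poly(I:C) with MSDC replicate 2. In MSDC both calls held under all 16 alternatives.

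The make-up of the family differed with Poly(I:C). The summed TPM of the cluster was 206.3 and 209 with Poly(I:C) and MSDC, 247.7 and 259.5 with Poly(I:C) and vehicle, 37.5 and 38.9 with MSDC, and 64.7 and 48.1 with vehicle. The other members summed to 650.9 and 627 TPM with Poly(I:C) and MSDC, 594.6 and 602.9 TPM with Poly(I:C) and vehicle, 590.4 and 574.5 TPM with MSDC, and 579.5 and 567.4 TPM with vehicle. The cluster thus held 24.8 to 31.2% of the counts of all members in the stimulated libraries and 5.86 to 10.1% in the unstimulated ones.

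**Figure D3:**
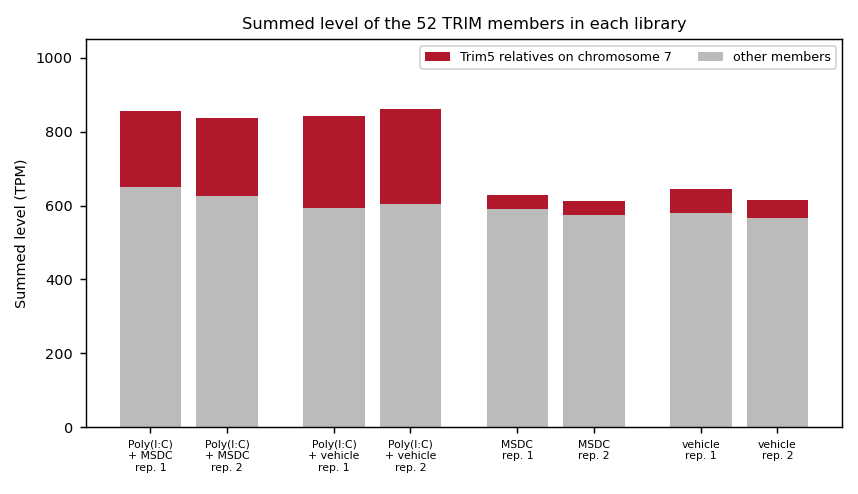
Summed level in TPM (vertical axis, from 0) of the 9 chromosome 7 relatives of Trim5 and of the other Trim members in each of the 8 libraries. The cluster holds 206.3 to 259.5 TPM in the 4 Poly(I:C) libraries and 37.5 to 64.7 TPM in the 4 others, while the other members lie between 567.4 and 650.9 TPM throughout.

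MSDC changed members in both directions. With Poly(I:C), 4 of 38 members were called higher and 5 lower, or 23.7% together, where 26.1% of all tested genes were called in that comparison. Without Poly(I:C), 3 were called higher and 7 lower, or 26.3%, where 23.5% of all tested genes were called. These shares are near the background, so the family as a whole gives no result for MSDC, and single members are described. The median log2 fold change over members was -0.06 with Poly(I:C) and -0.10 without it, against 0.00 over all tested genes in each. Called with MSDC in both settings were Trim16, Trim36, Trim47 and Trim30a (lower) and Trim29 (higher).

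**Figure D4:**
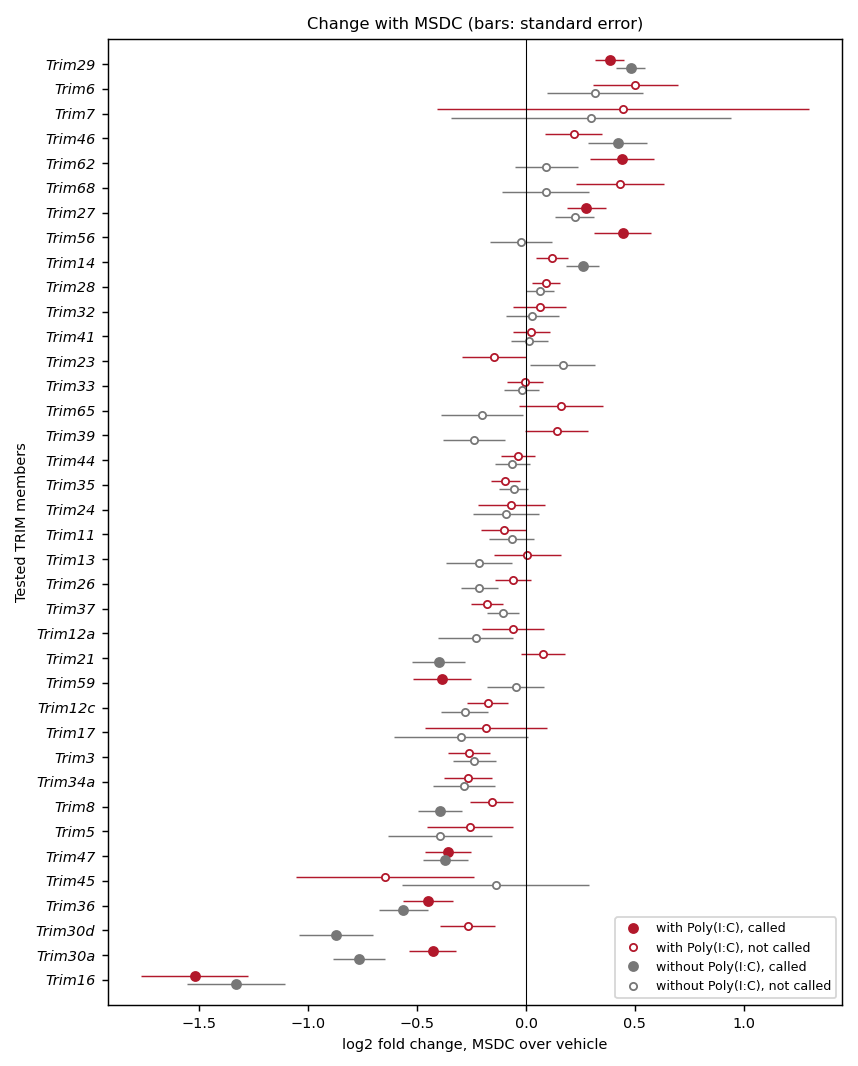
Change with MSDC of each of the 38 tested Trim members, in rows ordered by the mean of both log2 fold changes. Values are the log2 fold change of Poly(I:C) with MSDC over Poly(I:C) with vehicle and of MSDC over vehicle, with bars of 1 standard error. Trim16 lies lowest among the called members, at -1.52 and -1.33, and Trim29 lies at 0.38 and 0.48.

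Trim16 (chromosome 11, 62820231 to 62850808) takes part in autophagy of damaged endosomes and lysosomes and in secretion of interleukin-1 beta in human cells. It had 0.80 and 1.07 TPM with Poly(I:C) and MSDC against 2.08 and 3.15 TPM with Poly(I:C) and vehicle. Without Poly(I:C) it had 1.29 and 1.54 TPM with MSDC against 4.12 and 3.17 TPM with vehicle. All 4 MSDC libraries were below all 4 vehicle libraries. The log2 fold change was -1.52 with Poly(I:C) (SE 0.245, adjusted p = 0.000194) and -1.33 without it (SE 0.224, adjusted p = 0.000312), and both calls held under all 16 alternatives. Trim16 overlaps Fbxw10 on the same strand, so some of its reads may belong to that gene.

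Trim29 (chromosome 9, 43310848 to 43336115) lacks a RING finger, binds the NF-kB regulator NEMO and is known to restrain the response of mouse alveolar macrophages to infection. It had 119 and 110.2 TPM with Poly(I:C) and MSDC against 88.9 and 82.5 TPM with Poly(I:C) and vehicle, and 123 and 125 TPM with MSDC against 91.3 and 89.6 TPM with vehicle. All 4 MSDC libraries were above all 4 vehicle libraries, and Poly(I:C) itself made no called difference (log2 -0.11 in MSDC and -0.02 in vehicle). The log2 fold change with MSDC was 0.38 with Poly(I:C) (SE 0.067, adjusted p = 0.000388) and 0.48 without it (SE 0.0668, adjusted p = 4.93e-05). These calls also held under all 16 alternatives.

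The Trim30 genes were lower with MSDC. Without Poly(I:C), Trim30a changed by log2 -0.77 (SE 0.119, adjusted p = 0.000137) and Trim30d by log2 -0.87 (SE 0.171, adjusted p = 0.00119). The vehicle libraries differed from each other, and the change in Trim30a was -0.51 without vehicle replicate 1 and -0.99 without vehicle replicate 2, while that in Trim30d was -0.48 and -1.18. Irf7, an interferon-induced transcription factor, stood at 1.86 and 4.49 TPM with MSDC and at 17.5 and 6.87 TPM with vehicle, the same replicate of vehicle being the higher one, and the part of this difference in the Trim30 values was not tested. With Poly(I:C), Trim30a changed by log2 -0.43 (SE 0.106, adjusted p = 0.00631), a call that held under 11 of 16 alternatives. It was lost with DESeq2, with limma on log2(TPM + 0.1) with or without a filter, and without Poly(I:C) with vehicle replicate 2 or Poly(I:C) with MSDC replicate 1. Trim30d was not called there (log2 -0.27). Trim21 was called lower with MSDC in the unstimulated comparison (log2 -0.40, SE 0.12, adjusted p = 0.0235). It lost the call without vehicle replicate 1 or MSDC replicate 2, with only the groups compared, and with limma without a filter. With Poly(I:C) the log2 fold change of Trim21 was 0.08, not called. Trim14 was called higher with MSDC in the unstimulated comparison (log2 0.26, SE 0.0763, adjusted p = 0.0209). That call was lost without either MSDC library and in every limma setting. With Poly(I:C) the log2 fold change of Trim14 was 0.12, not called.

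Trim36 (chromosome 18, 46165300 to 46212607), whose product binds microtubules, had 4.82 and 5.77 TPM with Poly(I:C) and MSDC against 6.99 and 7.16 TPM with Poly(I:C) and vehicle (log2 -0.45, SE 0.114, adjusted p = 0.00768). Without Poly(I:C) it had 6.57 and 5.70 TPM with MSDC against 9.62 and 8.86 TPM with vehicle (log2 -0.56, SE 0.111, adjusted p = 0.00122). The call with Poly(I:C) was lost without Poly(I:C) with MSDC replicate 1 and with limma without a filter. Trim47 was lower in both settings, by log2 -0.36 with Poly(I:C) and -0.37 without it (adjusted p = 0.019 and 0.0154). Its call with Poly(I:C) was lost without Poly(I:C) with vehicle replicate 1 or either library of Poly(I:C) with MSDC, and with limma without a filter. The other call was lost without vehicle replicate 2 or either MSDC library. Trim47 shares some of its transcript with the overlapping Trim65. Trim8, known to promote TAK1 and NF-kB signalling, had 24.3 and 21.6 TPM with MSDC against 30.4 and 31.5 TPM with vehicle (log2 -0.40, SE 0.0998, adjusted p = 0.00819). That call was lost without MSDC replicate 2 and with limma without a filter. Trim46, a microtubule organizer of neurons, had 5.48 and 5.15 TPM with MSDC against 4.24 and 3.83 TPM with vehicle (log2 0.42, SE 0.135, adjusted p = 0.0329). Trim46 overlaps Krtcap2 on the opposite strand, and its call held under 7 of 16 alternatives, being lost with DESeq2, in all 3 limma settings, and without either vehicle library, either MSDC library or Poly(I:C) with MSDC replicate 2.

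In the presence of Poly(I:C), MSDC also raised Trim56, Trim62 and Trim27 and lowered Trim59. Trim56 had 7.82 and 7.39 TPM with Poly(I:C) and MSDC against 5.04 and 5.60 TPM with Poly(I:C) and vehicle (log2 0.44, SE 0.131, adjusted p = 0.0201). Trim62, which in mouse phagocytes ubiquitinates the antifungal adaptor CARD9, had 6.36 and 7.06 TPM with Poly(I:C) and MSDC against 4.08 and 5.80 TPM with Poly(I:C) and vehicle (log2 0.44, SE 0.148, adjusted p = 0.0385). Trim27, which acts on the endosomal WASH complex, had 39.2 and 39.5 TPM with Poly(I:C) and MSDC against 34.5 and 29.1 TPM with Poly(I:C) and vehicle (log2 0.28, SE 0.0895, adjusted p = 0.0327). Trim59 had 4.29 and 4.36 TPM with Poly(I:C) and MSDC against 5.97 and 5.12 TPM with Poly(I:C) and vehicle (log2 -0.39, SE 0.133, adjusted p = 0.0436). None of these 4 genes had overlapping groups, which at 2 libraries a group adds no support to calls already made. The Trim56 call was lost without Poly(I:C) with vehicle replicate 1, without either library of Poly(I:C) with MSDC, and with limma without a filter. The Trim27 call was lost without Poly(I:C) with vehicle replicate 2 and without either library of Poly(I:C) with MSDC. The Trim62 call held under 8 of 16 alternatives, being lost with DESeq2, in all 3 limma settings, and without Poly(I:C) with vehicle replicate 1, Poly(I:C) with MSDC replicate 2 or either MSDC library, and the Trim59 call held under 4 of 16 alternatives.

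Whether the Poly(I:C) response differed between MSDC and vehicle was tested as an interaction, which no member passed, where 0.224% of all tested genes were called. At an unadjusted p under 0.05, 4 members had a larger Poly(I:C) response in MSDC and 0 a smaller one, and DESeq2 and limma called 0. The share of all tested genes at that unadjusted threshold was not worked out, so these counts give no result for the family. The log2 difference of responses was 0.60 for Trim30d (SE 0.213, adjusted p = 0.573), 0.48 for Trim21 (SE 0.158, adjusted p = 0.532), 0.47 for Trim56 (SE 0.194, adjusted p = 0.716) and 0.34 for Trim30a (SE 0.159, adjusted p = 0.763). Without vehicle replicate 2, Trim30d (log2 0.91) and Trim30a (log2 0.56) were called, and Trim30d was also called when no filter on low counts was used. Poly(I:C) and MSDC comparisons share libraries, so a low value in unstimulated MSDC enters both the MSDC effect and the response to Poly(I:C).

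Called in no comparison were 18 of the 38 tested members, among them some of the most abundant. The share of all tested genes called in none was not worked out, so this count gives no result for the family. Trim28, the corepressor that KRAB zinc finger proteins recruit to silence retroelements, had 94.1 and 99.3 TPM with Poly(I:C) and MSDC, 84.4 and 93.2 TPM with Poly(I:C) and vehicle, 103 and 97.4 TPM with MSDC, and 98.5 and 96.5 TPM with vehicle. Its log2 fold change was at most 0.09 in size in any of the 4 comparisons, and those of its TIF1 relatives Trim24 and Trim33 at most 0.11 and 0.08. Trim35 had 42.0 and 40.8 TPM with Poly(I:C) and MSDC, 44.2 and 42.3 TPM with Poly(I:C) and vehicle, 39.9 and 41.1 TPM with MSDC, and 44.5 and 41.4 TPM with vehicle. Trim41 changed by at most 0.02 in size, at a mean level above 20 TPM. On the opposite strand Trim41 overlaps Rack1 and Trim28 overlaps Zbtb45, and the strand setting of the counting is not known here. The largest value among the 18 was log2 1.16 in size for Trim7, at a mean of 0.269 TPM, and a difference of that size was not detectable at so few reads.

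Genes that work with the family were looked up as lists, chosen with earlier results of these data known. The shares of all tested genes against which their counts are read are 4.82% higher with Poly(I:C) in MSDC and 7.52% in vehicle, and 26.1% called with MSDC under Poly(I:C) and 23.5% without it. Pml and Mid1 encode TRIM proteins under other symbols, and Pml rose with Poly(I:C) by log2 1.45 in MSDC (SE 0.0685) and 1.80 in vehicle (SE 0.0694). Mid1 had 16.9 and 14.9 TPM with MSDC against 11.1 and 10.6 TPM with vehicle (log2 0.57, SE 0.118, adjusted p = 0.00206). Of 11 tested E1 and E2 enzymes, 1 was higher with Poly(I:C) in each setting, Ube2l6, the E2 enzyme for ISG15 conjugation, a share of 9.09% that is near the background. It had 218.6 and 247.9 TPM with Poly(I:C) and MSDC, 299.3 and 323.8 TPM with Poly(I:C) and vehicle, 23.1 and 22.0 TPM with MSDC, and 56.1 and 41.0 TPM with vehicle. Of 14 tested genes of interferon signal transduction, 6 were higher and 0 lower with Poly(I:C) in MSDC, and 9 higher and 0 lower in vehicle. With MSDC, 1 was higher and 4 lower under Poly(I:C), or 35.7%, and 2 higher and 6 lower without it, or 57.1%. All 4 tested reference interferon-stimulated genes were higher with Poly(I:C), with a median log2 fold change of 8.2 in MSDC and 6.54 in vehicle. In the interaction 0 of the 4 were called, where 0.224% of all tested genes were. Their mean levels without Poly(I:C) were low, at 0.095 to 3.07 TPM with MSDC and 0.16 to 5.13 TPM with vehicle. With Poly(I:C) they were at 42.86 to 258.7 TPM with MSDC and 39.28 to 330 TPM with vehicle. Of 5 negative regulators of interferon signalling, 2 were higher with Poly(I:C) in MSDC and 3 in vehicle, and with MSDC 4 were lower under Poly(I:C) and 2 without it, counts too small to set against the background. Irf9, an interferon regulatory factor, was the 1 gene of the signal transduction list called in the interaction (log2 1.1, SE 0.176, adjusted p = 0.0134). Its mean level without Poly(I:C) was 10.6 TPM with MSDC against 24.7 TPM with vehicle (log2 -1.21, called lower). With Poly(I:C) it was 78.8 TPM with MSDC against 83.1 TPM with vehicle (log2 -0.11, not called). Among 7 tested partners of Trim28, 1 was called in each of the 4 comparisons (14.3%). Morc3 rose with Poly(I:C) by log2 0.71 in MSDC and 0.60 in vehicle, and Chd3 rose with MSDC by log2 0.31 under Poly(I:C) and 0.46 without it.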

How the data were processed

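Bulk RNA-seq of 8 samples was deposited by the authors as 1 table of genes. Its expected counts, called read counts per the file headers, carry no depth scaling, and the 5.95 to 7.19% of values in a library that were not whole were rounded here. The TPM values, named so per the file headers and scaled to length and depth by the authors, give the levels printed, and the FPKM columns deposited beside them were not used. GRCm38 (mm10), Cuffdiff, Bowtie2 2.3.4 and TopHat2 2.1.1 are listed per the submitters' processing notes without their roles, and the counting tool and its strand setting are not given in the sources used here. TPM per count was not constant (highest over lowest above 1.1) for 3 of 31 tested members with at least 100 counts in each library. Among tested members with fewer counts it was 1.21 for Trim5, 1.27 for Trim6, 1.35 for Trim45 and 2.06 for Trim7. It was 1.01 or less for Trim16, Trim17 and Trim68. Where it was above 1.1, a TPM ratio and a fold change can differ.

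Genes were filtered with filterByExpr (11621 kept of 15521), scaled by TMM and fitted with 1 quasi-likelihood model with 4 groups to all 8 libraries (edgeR 4.0.16, R 4.3.3, 4 residual degrees of freedom). Fold changes come from the counts, and SE is the size of the log2 fold change over the square root of F. Contrasts tested the effect of Poly(I:C) in MSDC and in vehicle, of MSDC with and without Poly(I:C), and their interaction, called two-sided at adjusted p under 0.05. Values in every library are given for members called with an absolute log2 fold change of at least 1 and for the 5 highest mean levels, and other members may be named. The members and lists were chosen with earlier results of these data known. The procedure was tested on simulated data. Alternatives were DESeq2 1.42.0, library totals alone, no filter, each library left out, a replicate block, only the groups compared, and limma 3.58.1 on log2(TPM + 0.1) or log2(TPM + 1) for genes averaging at least 0.5 TPM, or without that filter. Sums over near-identical copies were added after seeing the data. Positions come from GENCODE M21 and promoters from RefSeq, both GRCm38. In the promoter table, the last 25 bases of 47 of 53 member promoters were found in a transcript of the gene.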

Additional observations from a re-analysis of the deposited data

How the results depend on the processing

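Of 41 calls of members, 23 held under all 16 alternatives: 7 of 11 for Poly(I:C) in vehicle, 9 of 11 for Poly(I:C) in MSDC, 5 of 10 for MSDC alone and 2 of 9 for MSDC with Poly(I:C). Among alternative values of the named members, 944 kept their side of the threshold, 16 fell short of it and 18 passed it. Of values called in the main or the alternative fit, 0 reversed direction. Changes of direction among values called in neither were not counted, and some occurred. For Poly(I:C) in vehicle, members called higher numbered 11, and 7 with limma without a filter, while members called lower numbered 0, and 1 with library totals alone or without a filter. For MSDC alone, 3 were higher, 1 with each limma setting and 1 to 3 leaving out 1 library, and 7 were lower, 4 to 7 leaving out 1 library, with 4 without MSDC replicate 2. For MSDC with Poly(I:C), 4 were higher, 2 with limma without a filter and 1 to 4 leaving out 1 library. In that comparison 5 were lower, 3 with DESeq2 or limma on log2(TPM + 0.1), 2 with limma without a filter and 1 to 7 leaving out 1 library, with 1 without Poly(I:C) with MSDC replicate 1. For the interaction, 0 were higher, 1 without a filter on counts and 0 to 2 leaving out 1 library. The cause of these differences was not tested.

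Replicate numbers share no stated source, and deviations of same-numbered samples correlated by -0.0257 to 0.0506 over 6 pairs of groups. Such low values cannot tell whether same-numbered samples came from a common animal or culture. With a replicate block, 11 and 0 members were called higher and lower for Poly(I:C) in vehicle, 11 and 0 for Poly(I:C) in MSDC, 3 and 7 for MSDC alone, 4 and 4 for MSDC with Poly(I:C), and 0 and 0 for the interaction. At 2 libraries a group, members with few reads, such as Trim7, Trim17 and Trim45, could show large differences only.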
